A study of Mus musculus with 74 samples.

Results

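The chromatin binding of GPS2 was compared between livers of WT mice and of *Ncor* LKO mice, in which the *Ncor* gene is deleted in the liver. The comparison held 6 of the 74 libraries of the series, 3 from WT (WT1 to WT3) and 3 from *Ncor* LKO livers (LKO1 to LKO3), and every one of the 56278 peaks of the GPS2 tag table for this line was used. The mice were C57BL/6 males on a chow diet, aged 8 to 12 weeks by the sample labels. The Cre driver of the *Ncor* line is not given in the sources used here, and each library combined several immunoprecipitations. The sources do not tie each library to 1 animal, so p-values measure the spread between these libraries. No RNA or NCOR library of this line was analysed here, so the deletion itself was not checked. In whole liver, loss of GPS2 from chromatin and a change in the number of cells that carry it cannot be told apart. The median peak was 177 bp wide.

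GPS2 is a core subunit of a corepressor complex that also contains NCOR, the TBL1 and TBLR1 proteins and the histone deacetylase HDAC3. NCOR is the scaffold: it docks on nuclear receptors that lack an activating ligand and brings the deacetylase to their enhancers and promoters. In liver such receptors include PPARα, the fatty acid sensor that drives lipid oxidation, and REV-ERBα, the clock repressor. The comparison asks at which sites GPS2 stays on chromatin when NCOR is gone.

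Peaks that carried the comparison are printed first, so that the sites behind the values can be seen. PPARα binds with RXR to a direct repeat of AGGTCA with 1 base between the copies, written DR1. Each sequence is the whole peak on the plus strand of NCBIM37 (mm9), with the best match to the named repeat on either strand in capitals. The first set is shown because GPS2 fell there in *Ncor* LKO livers, by the test with total tags or with TMM given below. The peak 61407 bp upstream of *Mroh2b* (chr15:4787234-4787427, intergenic) had 3 mismatches to DR1 among the 12 fixed bases, on the minus strand. The peak in an intron of *Cpne5* (chr17:29347060-29347323) had 2 mismatches and 12 copies of GGTCA on either strand, in a tandem array. The intronic peak of *Angptl4* (chr17:33916191-33916447) had 2 mismatches, and the intergenic peak 4107 bp upstream of *Cyp4a10* (chr4:115186655-115186915) had 3. The peak near *4930417O22Rik* (chr11:101789381-101789595, intergenic) is shown with its match to DR2, the same repeat with 2 bases between the copies, which had 1 mismatch.
Mroh2b, DR1: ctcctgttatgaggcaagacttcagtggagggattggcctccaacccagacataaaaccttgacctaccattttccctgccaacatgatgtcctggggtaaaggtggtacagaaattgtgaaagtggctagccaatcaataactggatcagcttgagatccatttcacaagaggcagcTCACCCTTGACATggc
Cpne5, DR1: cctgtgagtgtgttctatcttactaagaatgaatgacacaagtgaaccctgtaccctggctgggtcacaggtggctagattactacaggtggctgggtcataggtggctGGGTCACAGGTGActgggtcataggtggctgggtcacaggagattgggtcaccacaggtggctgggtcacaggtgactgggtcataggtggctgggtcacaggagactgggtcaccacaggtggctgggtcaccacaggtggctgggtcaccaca
Angptl4, DR1: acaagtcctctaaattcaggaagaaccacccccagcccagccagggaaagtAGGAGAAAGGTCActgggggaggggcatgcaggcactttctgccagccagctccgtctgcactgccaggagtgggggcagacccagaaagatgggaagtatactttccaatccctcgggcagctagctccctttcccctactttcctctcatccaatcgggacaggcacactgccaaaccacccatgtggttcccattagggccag
Cyp4a10, DR1: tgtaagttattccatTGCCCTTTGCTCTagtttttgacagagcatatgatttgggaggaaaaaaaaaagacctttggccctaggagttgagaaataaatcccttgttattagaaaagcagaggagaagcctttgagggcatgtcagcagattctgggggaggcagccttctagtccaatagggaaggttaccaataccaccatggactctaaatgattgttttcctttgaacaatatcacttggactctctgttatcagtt
4930417O22Rik, DR2: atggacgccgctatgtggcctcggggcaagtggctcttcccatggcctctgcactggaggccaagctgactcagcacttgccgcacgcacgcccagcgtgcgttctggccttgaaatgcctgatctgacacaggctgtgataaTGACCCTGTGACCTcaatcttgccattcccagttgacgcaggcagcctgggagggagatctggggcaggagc
Further sites serve as contrasts. The promoter peak of *Arntl*, the gene of the clock activator BMAL1, holds an exact RORE (AGGTCA preceded by AANT), the element that REV-ERBα and ROR receptors read, and the 30 bases around it (chr7:120351042-120351071) are shown. The intergenic peak 10743 bp upstream of *Alb* (chr5:90879008-90879299), the albumin gene, had the highest mean GPS2 level among peaks that kept GPS2 as defined below, and its best DR1 match had 5 mismatches.
Arntl, RORE: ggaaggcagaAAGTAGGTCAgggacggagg
Alb, DR1: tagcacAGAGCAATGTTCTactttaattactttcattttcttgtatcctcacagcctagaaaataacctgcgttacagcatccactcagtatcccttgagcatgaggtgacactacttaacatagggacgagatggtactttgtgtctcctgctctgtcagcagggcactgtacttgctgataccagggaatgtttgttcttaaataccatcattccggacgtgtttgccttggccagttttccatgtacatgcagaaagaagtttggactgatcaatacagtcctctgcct

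GPS2 tags were sparser over the whole peak set in *Ncor* LKO livers, but 1 WT library looked like the LKO libraries. Total tags were between 12.03 M and 20.29 M per library, and levels are given as normalised tags, that is tags per 10000000 total tags. The share of all tags that lay in the listed peaks was 8.23% in WT1, 7.82% in WT2 and 3.07% in WT3, and 2.85% in LKO1, 3.15% in LKO2 and 2.45% in LKO3. The means were 6.37% ± 2.87 (SD, n = 3) and 2.82% ± 0.349 (SD, n = 3), a difference of -3.56 percentage points (exact permutation test over libraries, two-sided, p = 0.2, where 0.1 is the smallest value 3 against 3 can give). WT3 lay below LKO2, so the groups overlapped. The libraries' own peak lists showed the same order, with 46157, 34941 and 13863 peaks in WT1 to WT3 and 13260, 14182 and 9563 peaks in LKO1 to LKO3 (exact permutation test, two-sided, p = 0.2). WT3 of the PPARα ChIP-seq of this line also had a low share of tags in its peaks, 8.96%, against 18.6% to 19.3% in the other WT libraries and 14.7% to 21.1% in LKO, and whether the same liver was used was not stated. H3K27ac libraries of this line did not show such a gap, with shares between 73.9% and 77.7% over all 6.

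**Figure D1:**
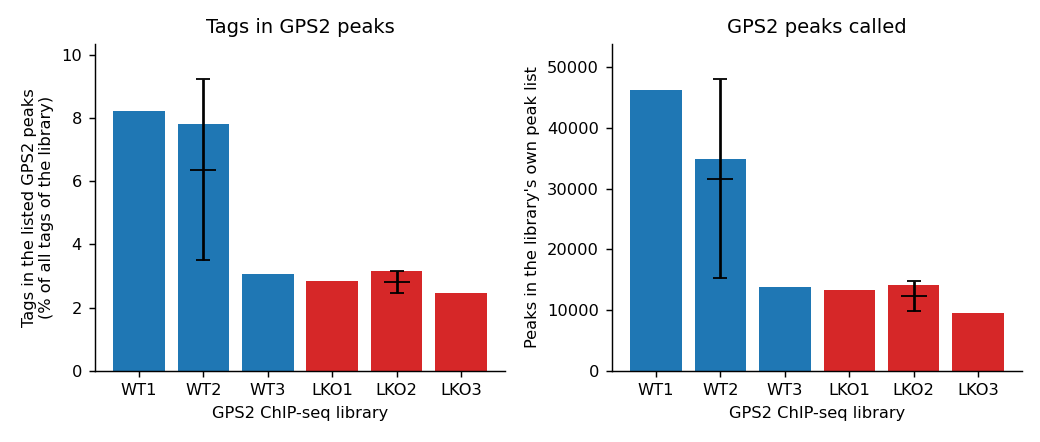
Share of each GPS2 library's tags that lie in the 56278 listed peaks (left, percent) and number of peaks in each library's own list (right), with WT in blue and LKO in red. Bars are single libraries and the black marks give the mean and SD of each group (n = 3). WT3 stands at 3.07%, beside the LKO libraries at 2.45% to 3.15%.

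GPS2 in *Ncor* LKO livers stayed above the level seen without GPS2. At 37959 peaks also counted in a GPS2 library of *Gps2* LKO liver, the median was 0.493 normalised tags per 100 bp in that library, which measures background of the antibody. The medians in the *Ncor* line were 6.86, 6.13 and 2.52 in WT1 to WT3 and 2.32, 2.57 and 1.94 in LKO1 to LKO3. In each *Ncor* LKO library, between 92.6% and 95.1% of these peaks stood above their own level in the *Gps2* LKO library. That background rests on 1 library, and its table was counted separately.

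Scaled to total tags, GPS2 was lower at most peaks in *Ncor* LKO livers, and few single peaks passed the test. The median log2 fold change over all peaks was -1.12, a median fold of 0.46, and 49998 peaks (88.8%) had a value below 0. Every LKO library was below every WT library at 14948 peaks (26.6%) and above every WT library at 719 peaks (1.28%). At an adjusted p below 0.05 (edgeR quasi-likelihood test, Benjamini-Hochberg), GPS2 fell at 19 peaks (0.0338%) and rose at 0 (0%). At an unadjusted p below 0.05, 19066 peaks were lower and 257 were higher, 34.3% of all. DESeq2 with the same total tags called 9847 lower and 5 higher. All 19 had fallen at least to the log2 value of -1 that is called lost here. A peak was called kept where the lower end of its 95% interval stayed above -1, and 3380 peaks (6.01%) were kept, of which 3377 had a value above 0. The median standard error was 0.7 on the log2 scale, so most peaks could be called neither lost nor kept. Leaving out WT3 changed this most: 33248 peaks (59.1%) were then lower and 224 (0.398%) higher. Leaving out any of the other 5 libraries left 0 lower.

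TMM scaling, which sets the bulk of peaks to no change, asked which peaks moved relative to the rest. It moved the median to -0.04, and the TMM factors were 1.974, 1.8827 and 0.7586 for WT1 to WT3 and 0.7222, 0.7934 and 0.619 for LKO1 to LKO3. With it, 258 peaks (0.458%) fell and 999 (1.78%) rose, 164 (0.291%) were lost and 28556 (50.7%) were kept. The median standard error was 0.51, and 8811 peaks (15.7%) had an unadjusted p below 0.05, 3420 lower and 5391 higher. DESeq2 with its own size factors called 66 lower and 394 higher. In TMM-scaled tags every LKO library was below every WT library at 5271 peaks (9.37%) and above at 4777 (8.49%). The peaks that fell with TMM had a median level of 27.2 normalised tags and those that rose had 4.22, against 5.47 over all peaks. In the normalised tags, every LKO library was below every WT library at all but 2 of the 258, and all 258 were also lower with total tags without WT3. Of all peaks, 26.6% and 59.1% met these conditions. Such repeat counts, here and below, reuse the libraries that made the calls, so they describe the calls and are no separate evidence. Among the 19 peaks lower with total tags, 16 also fell with TMM. The TMM calls depended on single libraries: the numbers that fell and rose were 10 and 26 without WT1, 52 and 98 without WT2, 451 and 1808 without WT3, 13 and 131 without LKO1, 251 and 1584 without LKO2, and 33 and 100 without LKO3. Without WT3, 228 of the 258 and 951 of the 999 were called again. Among the 999 that rose, 491 had every LKO library above every WT library, and 10 had a total-tag value below 0. The 2 scalings thus gave opposite balances of calls, 19 lower and 0 higher against 258 lower and 999 higher, and values below are given under both, total tags first.

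**Figure D2:**
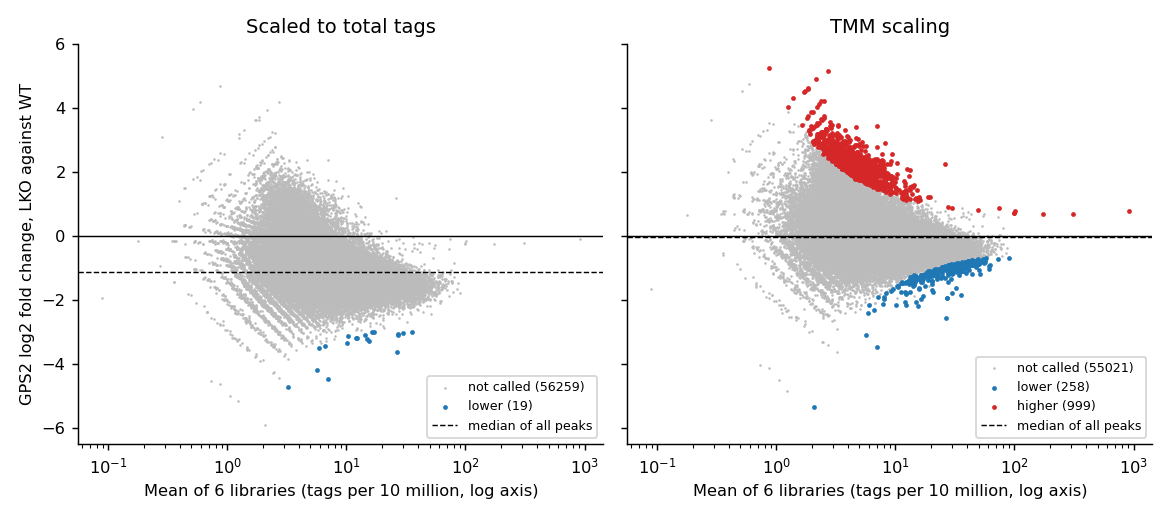
GPS2 log2 fold change of LKO against WT (vertical axis) by mean level (horizontal log axis, tags per 10000000) for 56278 peaks, scaled to total tags (left) and by TMM (right). Points are peaks, coloured where the adjusted p is below 0.05. The dashed line is the median, -1.12 on the left and -0.04 on the right, and the called falls lie at higher levels than the called rises.

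Peak classes differed in how far below WT they stood. Each scaling applies 1 factor per library to all peaks, so the order of classes is nearly the same under both by construction. Classes used other libraries than the comparison: NCOR peaks from 6 WT peak lists, of the *Gps2* and *Pparα* lines, and PPARα peaks from 8 WT lists, each needing at least 2 lists. At 43247 GPS2 peaks on an NCOR peak the median was -1.22 with total tags and -0.13 with TMM, and at 13031 peaks without one it was -0.52 and 0.52. With TMM, all but 2 of the 258 peaks that fell and 134 of the 999 that rose lay on an NCOR peak, as did 76.8% of all peaks. Of the peaks without an NCOR peak, 865 rose (6.64%, against 1.78% of all peaks) and 22.4% were kept with total tags (6.01% of all). Peaks listed in LKO libraries only, which are high in LKO by that choice, held 859 of the 999 rises. They were not set apart in these classes, so the values at peaks without an NCOR or PPARα peak are a description only. Medians fell with the count of NCOR lists, where peaks listed in LKO libraries only were again not set apart. Peaks in 0 lists held 781 of the 999 rises and had a median level of 3.51 normalised tags. The series is therefore a description only. From 0 to 6 lists the total-tag medians were -0.29, -0.85, -0.93, -1.0, -1.06, -1.15 and -1.35. With TMM they were 0.74, 0.20, 0.14, 0.07, 0.02, -0.07 and -0.24. The peaks in all 6 NCOR lists, 38.0% of all peaks, held 229 of the 258 falls. These peaks were also stronger, with a median level of 9.85 normalised tags against 5.47 over all peaks.

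The same classes were also read as shares within each library, where no scaling enters. Peaks in all 6 NCOR lists took 63.7%, 58.5% and 56.2% of the in-peak tags of WT1 to WT3, and 52.3%, 53.6% and 50.6% of those of LKO1 to LKO3. Peaks without an NCOR peak took 9.19%, 11.9% and 13.8% in WT and 17.3%, 15.5% and 19.2% in LKO. The groups did not overlap in either class, and WT3 lay nearest to LKO in both. Peaks listed in LKO libraries only were part of these shares. They took 2.72%, 2.9% and 4.51% in WT and 8.92%, 7.12% and 10.6% in LKO. The separation, here and at the PPARα peaks that follow, is therefore a description and no separate evidence. Peaks on a PPARα peak went with the NCOR class, with 91.6%, 90.9% and 88.6% of the tags in WT and 84.6%, 86.8% and 82.8% in LKO. Their medians were -1.22 and -0.13, against -0.49 and 0.56 at the 13161 peaks with none.

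Stronger peaks also stood further below WT. Strength was read in a separate GPS2 library of *Gps2* WT liver, whose peaks were put in 4 groups of similar number. From the weakest to the strongest group the total-tag medians were -0.99, -1.13, -1.29 and -1.49, and the TMM medians 0.08, -0.05, -0.19 and -0.37. The strongest group, 9074 peaks (16.1% of all), held 230 of the 258 falls. It took 44.3%, 42.6% and 39.3% of in-peak tags in WT and 34.5%, 36.0% and 33.1% in LKO. Within the 37958 peaks found in that library, the difference by NCOR was smaller: -1.27 and -0.18 at 34941 peaks on an NCOR peak, and -1.05 and 0.03 at 3017 without one. With TMM 60 of the former (0.172%) and 15 of the latter (0.497%) rose. The former took 84.4%, 81.2% and 78.8% of all in-peak tags in WT and 74.4%, 76.5% and 72.1% in LKO. The latter took 3.62%, 4.87% and 4.93% in WT and 4.68%, 4.99% and 4.47% in LKO, so their groups overlapped. Strength and NCOR were not separated further.

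Promoters stood nearer to WT than distal sites by the medians, but not in every library. The 14175 peaks within 1000 bp of a start site had medians of -1.0 and 0.07, those 1000 to 10000 bp away -1.15 and -0.06, and those farther than 10000 bp -1.18 and -0.09. Promoter peaks took 19.5%, 24.9% and 25.5% of the in-peak tags in WT and 25.2%, 25.6% and 23.2% in LKO, so the groups overlapped, and without WT1 the promoter median relative to all peaks was -0.06 in place of 0.13. With TMM, 22 promoter peaks fell (0.155%) and 179 rose (1.26%), against 0.458% and 1.78% of all peaks. Peaks with the promoter mark H3K4me3 had medians of -1.07 and 0, and peaks with the active mark H3K27ac -1.16 and -0.07, close to all peaks (-1.12 and -0.04).

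**Figure D3:**
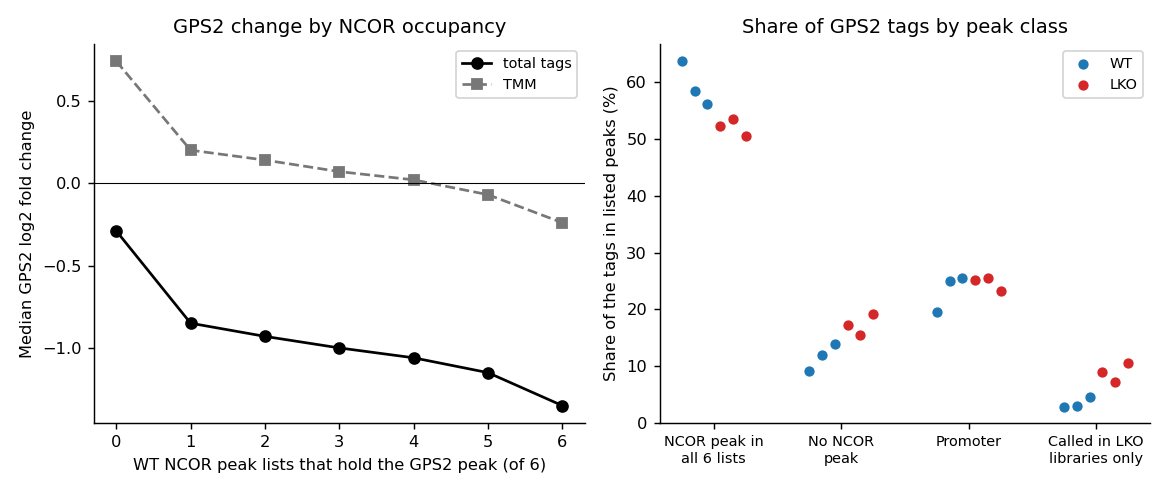
Median GPS2 log2 fold change by the number of WT NCOR peak lists that hold the peak (left, total tags in black and TMM in grey) and share of each library's in-peak tags by class (right, percent; WT blue, LKO red, WT1 to WT3 and LKO1 to LKO3 from left to right). The median falls from -0.29 to -1.35 with total tags from 0 to 6 lists, and the share of peaks in all 6 lists is 56.2% to 63.7% in WT and 50.6% to 53.6% in LKO. Peaks listed in LKO libraries only were not set apart in the classes by NCOR.

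The peaks that fell and those that rose with TMM differed in annotation and in the share with some motifs. Of the 258 that fell, 50.8% were intergenic and 38.4% intronic, whereas 30.4% and 44.5% of all peaks were. Of the 999 that rose, 6.01% were intergenic and 77.3% intronic, and 7.21% were exonic against 2.64% of all peaks. DR1 with at most 1 mismatch, within 100 bp of the peak centre on either strand, was found in 3.88% of the peaks that fell, 1.96% of all peaks and 0.201% of those that rose. A DR1 match with at most 2 mismatches anywhere in the peak occurred in 22.5%, 9.42% and 3.62%, but the peaks that fell were also wider, with medians of 231, 177 and 181 bp. DR4, the repeat with 4 bases between copies that LXR and thyroid hormone receptors bind, was found in 3.49%, 0.635% and 0.604%, again with at most 1 mismatch. DR2, with at most 1 mismatch, was found in 1.94%, 0.783% and 0%, and an exact RORE in 1.16%, 0.505% and 0%. The forkhead motif TGTTTAC was found in 6.2%, 5.57% and 2.41%. The E-box CACGTG, which clock activators and related factors bind, was found in 3.1% of the peaks that fell, 4.9% of all peaks and 3.62% of those that rose. A motif of ETS factors was found in 0.775%, 1.45% and 0.302%, and 1 of HNF4 in 2.71%, 1.69% and 0.101%. The numbers behind the shares of the 258 falls were small: 10 peaks for DR1, 9 for DR4, 5 for DR2, 3 for the RORE, 16 for the forkhead motif, 8 for the E-box, 2 for the ETS motif and 7 for the HNF4 motif. These matches overlap between related repeats and are a description of the letters only.

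Peaks called only in LKO libraries held most of the rises. The 5127 peaks present in LKO lists and in no WT list had medians of 0.6 with total tags and 1.63 with TMM, and 859 of the 999 rises. They took 2.72%, 2.9% and 4.51% of in-peak tags in WT and 8.92%, 7.12% and 10.6% in LKO. Since these lists come from the libraries compared, this is a description and no separate evidence. Of them, 379 peaks were in at least 2 LKO lists and no WT list, and 212 of these rose with TMM. At the other end, 2160 peaks were in all 3 WT lists and no LKO list, and every LKO library was below every WT library at 1972 of them (91.3%).

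At single sites, deep loss stood near *Mroh2b*, *Cpne5* and *Akr1d1*, which were taken from the 19 peaks lower with total tags after their values were seen. The peak upstream of *Mroh2b*, whose sequence is given above, had 68.0, 54.0 and 26.3 normalised tags in WT1 to WT3 and 2.96, 4.13 and 4.67 in LKO1 to LKO3. Each LKO library was far below each WT library, WT3 included. The log2 fold change was -3.63 ± 0.69 (SE; adjusted p = 0.0082, edgeR quasi-likelihood) with total tags and -2.55 ± 0.31 (adjusted p = 6.8e-06) with TMM. A second peak, 62754 bp upstream of the same gene, also fell (-3.34, adjusted p = 0.033, and -2.16, adjusted p = 0.018). The intronic peak of *Cpne5*, which encodes a calcium-dependent membrane-binding protein, had 105, 64.0 and 22 tags in WT and 7.89, 10.6 and 5.19 in LKO. It was the only one of the 19 peaks with a mean of at least 50 tags in the table, and its value was -3.0 ± 0.66 with total tags (adjusted p = 0.032) and -1.85 ± 0.28 with TMM (adjusted p = 3e-04). The peak 103464 bp from *Akr1d1*, which encodes the steroid 5β-reductase of bile acid synthesis, had 84.6, 42.4 and 19.8 tags in WT and 7.89, 2.36 and 6.75 in LKO (-3.08, adjusted p = 0.032, and -1.92, adjusted p = 0.0019). The groups did not overlap at any of these 4 peaks, and WT3 was the lowest WT library at each.

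Some of these sites also lost PPARα and H3K27ac in the same line. At *Mroh2b* PPARα fell by 1.53 (TMM, adjusted p = 1.8e-06) and H3K27ac by 1.5 (total tags, adjusted p = 0.012). The peak 17473 bp from *Tmem50a* had 65.2, 79.8 and 14.5 GPS2 tags in WT and 7.89, 3.54 and 7.79 in LKO (-3.02, adjusted p = 0.032), with PPARα at -1.26 (adjusted p = 0.0018) and H3K27ac at -1.49 (adjusted p = 0.019). Peaks near *Cfap77*, with GPS2 at -3.44 (adjusted p = 0.047), and near the serine protease inhibitor pseudogene *Serpina4-ps1*, at -2.99 (adjusted p = 0.046), showed the same set of falls. H3K27ac was at -2.23 (adjusted p = 0.0059) and -1.05 (adjusted p = 0.022), and PPARα at -1.61 and -1.03 (adjusted p = 0.0055 at both). The *Serpina3j* peak had 18.2, 9.98 and 4.29 GPS2 tags in WT and between 0.493 and 0.591 in LKO, with PPARα at -2.2 (adjusted p = 0.0062). At *Gm5468* the GPS2 value was -4.47 (adjusted p = 0.0082) with total tags and -3.48 (adjusted p = 0.005) with TMM.

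Of the 19 calls, 3 rested on WT1 alone. At the non-coding gene *9130024F11Rik* 1 peak had 68.5 tags in WT1, 4.99 and 3.22 in WT2 and WT3, and 3.45, 1.77 and 3.64 in LKO. Its second peak and a peak at *Foxc1*, which had 18.2 tags in WT1 and at most 0.591 elsewhere, showed the same pattern. None of these 3 peaks overlapped an NCOR or PPARα peak list, and none passed with TMM (adjusted p = 0.066, 0.076 and 0.092).

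**Figure D4:**
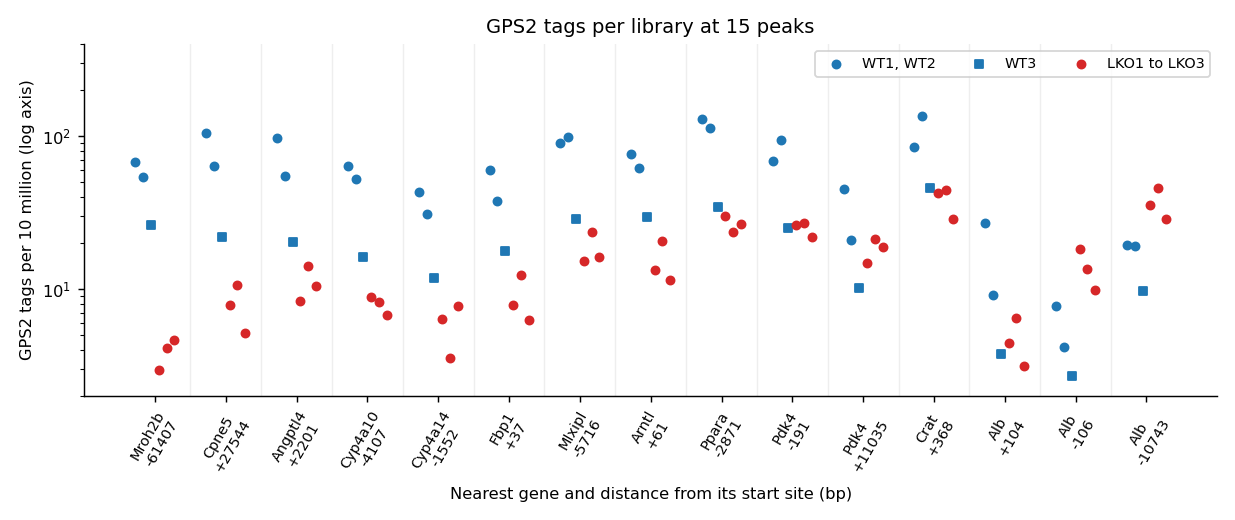
GPS2 tags per 10000000 total tags (log axis) in each library at 15 peaks, labelled by nearest gene and distance from its start site in bp. WT1 and WT2 are blue circles, WT3 a blue square and LKO1 to LKO3 red circles, each in this order. At Mroh2b the LKO libraries lie at 2.96 to 4.67, below all WT libraries, while at the Alb peak on the far right they lie at 28.6 to 45.5, above them.

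Genes that PPARα activates were not uniform in how much GPS2 they kept. All 33 genes of that list had a GPS2 peak within 10000 bp, and the strongest peak of each gave list medians of -1.46 with total tags and -0.31 with TMM. The value was below 0 at 32 genes with total tags and at 30 with TMM, where 88.8% and 52.3% of all peaks were. Every LKO library was below every WT library at 15. That held at 26.6% of all peaks and at 45.8% of the strongest of the 4 groups of GPS2 peaks. With total tags no gene passed in either direction by edgeR (29 were lower and 0 higher at an unadjusted p below 0.05, and DESeq2 with total tags called 24 lower and 0 higher). With TMM 2 fell, *Angptl4* and *Cyp4a10*, and 0 rose (8 lower and 1 higher at an unadjusted p below 0.05, and 2 lower and 0 higher by DESeq2). Over all peaks 0.458% fell and 1.78% rose with TMM, 33.9% were lower with total tags at an unadjusted p below 0.05, and DESeq2 with total tags called 17.5% lower. Here and in the lists below only the strongest peak of each gene was counted. The list medians lay near those of the strongest of the 4 groups of GPS2 peaks, -1.49 and -0.37, and 2.53% of that group fell with TMM.

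The peak of *Angptl4*, which encodes a secreted inhibitor of lipoprotein lipase, had 96.7, 54.9 and 20.4 tags in WT and 8.38, 14.2 and 10.4 in LKO. The WT3 value was the lowest of WT, yet above all of LKO. The log2 fold change was -2.38 ± 0.64 (adjusted p = 0.076) with total tags and -1.23 ± 0.26 (adjusted p = 0.011) with TMM, and H3K27ac there was -0.02. *Cyp4a10* and its neighbour *Cyp4a14* encode fatty acid ω-hydroxylases. The *Cyp4a10* peak had 63.6, 52.4 and 16.1 tags in WT and 8.87, 8.27 and 6.75 in LKO, with -2.45 ± 0.65 (adjusted p = 0.076) and -1.3 ± 0.28 (adjusted p = 0.011). At *Cyp4a14*, the peak 1552 bp upstream (chr4:115170177-115170419) had 43.1, 30.8 and 11.8 tags in WT and 6.41, 3.54 and 7.79 in LKO, with -2.25 ± 0.65 (adjusted p = 0.076) and -1.09 ± 0.33 (adjusted p = 0.067). The groups did not overlap at either peak. H3K27ac rose at both, by 1.26 (adjusted p = 0.0015) and 1.21 (adjusted p = 0.027) on the log2 scale, while PPARα gave -0.01 and 0.09 with TMM.

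*Pdk4*, which encodes the kinase that shuts off pyruvate dehydrogenase, stood near the median of all peaks. Its promoter peak (chr6:5446353-5446586) had 69.1, 94.0 and 25.2 tags in WT and 26.1, 27.2 and 21.8 in LKO, so WT3 lay among the LKO libraries. The values were -1.32 ± 0.61 (adjusted p = 0.12) and -0.17 ± 0.21 (adjusted p = 0.81). At the 3′ end of the gene, 11035 bp from the start site, GPS2 had 44.8, 20.8 and 10.2 tags in WT and 14.8, 21.3 and 18.7 in LKO (-0.47, adjusted p = 0.54, and 0.64 with TMM, adjusted p = 0.21). There PPARα rose by 1.34 (adjusted p = 0.00021) and H3K27ac by 1.68 (adjusted p = 0.0028).

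Other genes of fatty acid use had values close to those of the *Pdk4* promoter. At *Cpt1a*, which admits fatty acids to mitochondria, the strongest peak had 93.9, 89.8 and 30.5 tags in WT and 26.6, 26.6 and 26.0 in LKO (-1.43 and -0.28). That of *Crat*, the carnitine acetyltransferase gene, had 84.6, 135 and 46.1 in WT and 42.4, 44.3 and 28.6 in LKO (-1.2 and -0.11). Neither of these peaks passed under either scaling, although every LKO library was below every WT library at both. A second *Crat* peak, 1334 bp past the start site, had 95.6, 95.6 and 35.4 tags in WT and 20.2, 24.8 and 17.1 in LKO, and it fell with TMM (-0.75, adjusted p = 0.04; -1.86 with total tags). The promoter of *Ehhadh*, a peroxisomal enzyme, gave -1.26 and -0.12 for GPS2, while H3K27ac rose by 0.87 (adjusted p = 0.0035) and PPARα by 0.46 (TMM, adjusted p = 0.039).

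In lipid and glucose synthesis, 1 gene of each list fell with TMM at its strongest peak, 1 of 21 and 1 of 11. With TMM 0.458% of all peaks fell, but 2.53% of the strongest of the 4 groups of GPS2 peaks. Of peaks with a mean of at least 50 tags, 8.46% fell. *Mlxipl*, the gene of the glucose-responsive factor ChREBP, had 90.1, 99 and 28.9 tags in WT and 15.3, 23.6 and 16.1 in LKO (-1.98, adjusted p = 0.076, and -0.84 ± 0.22, adjusted p = 0.03). *Fbp1*, a gluconeogenic phosphatase gene, had 59.7, 37.4 and 17.7 in WT and 7.89, 12.4 and 6.23 in LKO (-2.11, adjusted p = 0.076, and -1.02 ± 0.28, adjusted p = 0.043). The 21 lipogenesis genes with a peak had medians of -1.32 and -0.24, and the 11 gluconeogenesis genes -1.48 and -0.32. *G6pc*, the last step of glucose release, had 104, 128 and 30.0 tags in WT and 38.4, 33.7 and 25.5 in LKO, where WT3 lay within LKO, with values of -1.42 (adjusted p = 0.1) and -0.24 (adjusted p = 0.65).

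Cholesterol synthesis genes stood nearest to WT among the metabolic lists. The 11 of 16 genes with a peak had medians of -1.02 and 0.11, and 3 of them were below 0 with TMM. *Cyp51*, a sterol demethylase gene, had 11.6, 18.3 and 10.7 tags in WT and 11.3, 15.9 and 8.83 in LKO, which overlap, with values of -0.16 and 0.86 (adjusted p = 0.84 and 0.16). *Insig1*, whose protein holds SREBP in the endoplasmic reticulum, gave -0.6 and 0.41. These peaks were weaker than those of PPARα targets, with a median of 9.4 against 20.5 normalised tags, and only 4 of the 11 were in all 6 NCOR lists. By contrast, all 11 bile acid genes had a peak, with medians of -1.67 and -0.57, and 10 were below 0 with TMM. *Nr0b2*, the gene of the bile acid repressor SHP, had 124, 127 and 55.2 tags in WT and 36.0, 41.9 and 30.6 in LKO (-1.5, adjusted p = 0.094, and -0.41, adjusted p = 0.23), and *Cyp7a1*, the rate-limiting enzyme, gave -0.97 and 0.11. By edgeR 0 genes of either list passed at the strongest peak (3 cholesterol and 10 bile acid genes were lower with total tags at an unadjusted p below 0.05, where 33.9% of all peaks were, and 2 and 10 by DESeq2 with total tags, where 17.5% were). Weaker peaks of *Fdps* and *Nr5a2* rose with TMM, by 1.88 (adjusted p = 0.029) and 1.4 (adjusted p = 0.021).

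Clock genes had medians of -1.5 and -0.39 over 19 peaks. Every LKO library was below every WT library at 10 of them. That held at 26.6% of all peaks and at 45.8% of the strongest of the 4 groups of GPS2 peaks. At the *Arntl* promoter, the site of the RORE shown above, the counts were 76.3, 61.5 and 29.5 normalised tags in WT livers and 13.3, 20.7 and 11.4 in LKO livers, with no overlap. The values were -1.88 ± 0.62 (adjusted p = 0.076) and -0.8 ± 0.23 (adjusted p = 0.051), and H3K27ac was 0.88 (adjusted p = 0.055). Some weaker peaks in the body of the same gene went the opposite way. Of the 17 peaks nearest to *Arntl*, 6 rose with TMM, by 1.89 to 2.71 (0.84 to 1.78 with total tags), all intronic and from 1013 to 53756 bp past the start site, where 1.78% of all peaks rose. The strongest rise among those that separated all LKO from all WT libraries, 34401 bp past the start site, went from 3.32, 4.99 and 2.68 tags in WT to 10.8, 8.27 and 6.23 in LKO (2.27 with TMM, adjusted p = 0.0081, and 1.23 with total tags). *Arntl* was 1 of the 3 genes with the most such peaks, with *Prkag2* (7 of 35) and *Cmip* (6 of 33), and was singled out after its values were seen. At *Nr1d1*, the gene of REV-ERBα, the promoter peak had 39.2, 29.9 and 14.5 tags in WT and 6.9, 6.5 and 5.19 in LKO (-2.15, adjusted p = 0.076, and -1.06, adjusted p = 0.057).

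The genes of the complex itself gave medians of -1.33 and -0.16 over the strongest peaks of 6 genes, with 0 calls by edgeR (4 lower with total tags at an unadjusted p below 0.05, where 33.9% of all peaks were, and 3 by DESeq2 with total tags, where 17.5% were). *Tbl1xr1*, the TBLR1 gene, had 78.5, 114 and 35.4 promoter tags in WT and 30.6, 35.4 and 24.4 in LKO (-1.33 and -0.21), with H3K27ac up by 0.77 (adjusted p = 0.0068). The strongest peak of *Ncor1* itself gave -1.33 and -0.12, while a weaker one upstream rose with TMM (2.54, adjusted p = 0.021), as did one of *Hdac3* (2.58, adjusted p = 0.021). Upstream of *Ppara*, GPS2 had 129, 113 and 34.3 tags in WT and 30.1, 23.6 and 26.5 in LKO (-1.78, adjusted p = 0.078, and -0.6, adjusted p = 0.093).

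The highest level among kept peaks stood at *Alb*. The upstream peak shown above had 19.3, 19.1 and 9.65 GPS2 tags in WT and 35.5, 45.5 and 28.6 in LKO, and the promoter peak 106 bp upstream had 7.74, 4.16 and 2.68 in WT and 18.2, 13.6 and 9.87 in LKO. Every LKO library was above every WT library at both. The values were 1.19 ± 0.62 (adjusted p = 0.15) and 1.5 ± 0.67 (adjusted p = 0.11) with total tags, and 2.25 ± 0.24 (adjusted p = 1.9e-07) and 2.56 ± 0.38 (adjusted p = 3e-04) with TMM. PPARα rose at the same peaks with TMM, by 1.13 (adjusted p = 3.4e-05) and 1.53 (adjusted p = 0.001), from 66.6, 92.4 and 40.9 tags in WT to 136, 149 and 190 in LKO at the first. H3K27ac did not pass there (-0.41, adjusted p = 0.16). The *Gps2* LKO mice of the study were made with *Alb*-Cre mice, and the driver of the *Ncor* line is not given. DNA copy number at these *Alb* peaks was not tested and cannot be told apart from binding here. The locus was not uniform: peaks 104 bp and 13612 bp past the start site gave TMM values of -0.39 and 0.37, and those 3445 and 13066 bp upstream -0.66 and 0.26, none passing the test. With total tags these 4 peaks lay between -1.75 and -0.68. The next kept peaks by level were in introns of *Pdlim7* (13.3, 17.5 and 9.11 tags in WT and 15.3, 16.5 and 19.2 in LKO) and *Iqgap2*, near *Gm21119*, and in *Foxo1*, whose intronic peak had 11.6, 18.3 and 5.36 in WT and 18.2, 14.8 and 14 in LKO (0.44, adjusted p = 0.57, and 1.57, adjusted p = 0.0064).

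Among peaks with a mean of at least 50 tags, GPS2 was lower throughout with total tags, and calls went both ways with TMM. All 1218 such peaks had a total-tag value below 0, and 1146 (94.1%) had one below 0 with TMM. In normalised tags 730 had every LKO library below every WT library and 0 the opposite. With total tags 1 passed as lower (0.0821%). With TMM 103 were called lower (8.46%) and 9 higher (0.739%), against 0.458% and 1.78% of all peaks. The 9 included the 6 strongest peaks of the table, and all 9 had total-tag values below 0. Where groups were also required not to overlap in TMM-scaled tags, 102 fell and 1 rose. The 5 largest falls were at *Cpne5*, *4930417O22Rik*, *Angptl4*, *Mir8110* and *1500011B03Rik*. The *4930417O22Rik* peak, with the DR2 shown above, had 64.7, 69.8 and 32.7 tags in WT and 8.87, 11.8 and 5.19 in LKO (-2.68, adjusted p = 0.06, and -1.63, adjusted p = 0.00089). The only rise under this condition, at *Pisd-ps2*, had 52.5, 64.9 and 41.8 tags in WT and 42.4, 45.5 and 49.3 in LKO, so its groups overlapped in normalised tags. It changed sign with the scaling, from -0.21 (adjusted p = 0.78) to 0.8 (adjusted p = 0.035).

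Other readouts of the same line were then read at the peaks that changed. H3K27ac and PPARα tags come from separate libraries of the *Ncor* line, with WT libraries of their own. At the regions under the 258 GPS2 falls, H3K27ac rose more often than elsewhere: 53 of 228 regions rose (23.2%) and 11 fell (4.82%), where 4.47% rose and 1.39% fell among all 27233 regions with a GPS2 peak, and 2.32% and 0.801% among all 68817 regions tested. The median H3K27ac log2 fold change was 0.27, and 168 of the 228 (73.7%) were above 0. Strong GPS2 peaks had more H3K27ac rises in general, since 109 of 935 regions (11.7%) rose at peaks with a mean of at least 50 tags that did not fall, against 31 of 93 (33.3%) at those that did. With TMM scaling of H3K27ac the counts at the falls were again 53 and 11, where 2.36% of all regions rose and 0.719% fell. At the 999 GPS2 rises, 42 of 776 regions (5.41%) rose and 6 (0.773%) fell. Read the other way, among peaks with a mean of at least 10 tags, GPS2 fell with TMM at 3.77% inside H3K27ac regions that rose, 3.92% inside those that fell and 0.735% inside those not called. The number of H3K27ac rises over all GPS2 regions, 1217, was 247 without WT2.

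The falls also differed in H3K27ac. At 58 peaks H3K27ac rose, PPARα had a median of 0.03 with TMM, and 2 PPARα regions fell. These included *Cyp4a10*, both 4107 bp upstream and 1019 bp past its start, *Cyp4a31* (chr4:115237183-115237367), where GPS2 was -1.14 with TMM (adjusted p = 0.05 after rounding) and H3K27ac rose by 1.44 (adjusted p = 0.0018), and a peak far upstream of *Tbl1xr1* (chr3:21861311-21861585), where GPS2 was -1.14 with TMM (adjusted p = 0.01) and H3K27ac rose by 1.42 (adjusted p = 0.0039). The largest H3K27ac rises were near *Tab2* (3.14, adjusted p = 0.0023), an adaptor of cytokine signalling, and *Dhrs9* (1.91, adjusted p = 0.002), a retinol dehydrogenase gene. At 13 peaks H3K27ac fell, with a median PPARα value of -1.03, 9 PPARα regions lower and a median GPS2 value of -1.79. At the remaining 172 with a region, H3K27ac was not called and 8 PPARα regions fell.

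PPARα calls went in the direction of the GPS2 calls, at a minority of sites. With TMM, 21 PPARα regions fell (8.2%, against 0.464% of all 86168) and 0 rose by edgeR (60 were lower and 9 higher at an unadjusted p below 0.05, and DESeq2 called 15 and 0), with a median of -0.1. At the GPS2 rises 11 of 205 rose (5.37%, against 1.27% of all) and 0 fell (34 higher and 2 lower at an unadjusted p below 0.05, and 4 and 0 by DESeq2), with a median of 0.23. Scaled to total tags, PPARα fell at 1 region (0.391%, against 0.0453% of all) and rose at 0 of the first set, and 2 of the second rose (0.976%, against 0.151%). Over all GPS2 peaks PPARα fell at 13 regions and rose at 24 with total tags, and without its WT3 at 338 and 103.

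In *Pparα* KO livers, which lack the receptor and have WT libraries of their own, GPS2 was also lower over the peak set: the total-tag median was -0.93 over 27842 peaks, with 76 lower (0.273%) and 0 higher (0%). The share of tags in those peaks was 2.55%, 2.42% and 4.39% in WT1 to WT3 of that line. It was 2.06%, 1.87% and 1.07% in KO1 to KO3, so WT3 and KO3 stood apart from the other libraries of their groups. At the 249 peaks shared with the *Ncor* LKO falls the medians were -1.11 with total tags and -0.18 with TMM, where 3 fell (1.2%, against 0.097% of all) and 0 rose (0.0539% of all; 23 lower and 4 higher at an unadjusted p below 0.05, and 2 and 0 by DESeq2). At 54 peaks shared with the rises they were -0.6 and 0.35. Single loci differed between the lines. At *Cpne5* GPS2 fell in both, by 2.75 in *Pparα* KO (adjusted p = 0.0036). At *Vnn1*, a pantetheinase gene, it fell by 3.06 in *Pparα* KO (adjusted p = 0.009) and gave -1.89 (adjusted p = 0.078) in *Ncor* LKO. At *Mroh2b* the *Pparα* KO value was -0.51 (adjusted p = 0.46), against -3.63 here. These differences between lines were not tested.

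**Figure D5:**
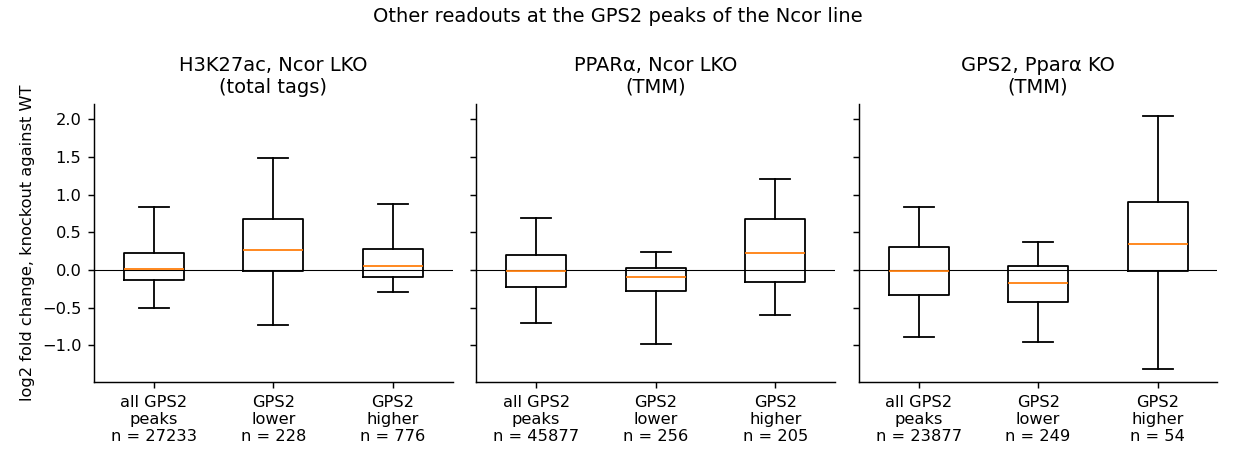
Log2 fold changes of H3K27ac in Ncor LKO (left, total tags), PPARα in Ncor LKO (middle, TMM) and GPS2 in Pparα KO (right, TMM), each against its own WT, at all GPS2 peaks and at those that fell or rose in Ncor LKO with TMM. Boxes give the quartiles and median, whiskers the 5th and 95th percentiles, and n the number of regions. The H3K27ac median is 0.27 at GPS2 falls and 0.01 at all GPS2 peaks.

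Marker genes of liver cell types were read by their H3K27ac tags, since no RNA of this line was used. Sums over marker lists, per 10000000 tags, were 14395 to 17006 in WT and 14408 to 14781 in LKO for hepatocytes (6 of 7 genes with a peak), 818 to 933 and 835 to 898 for Kupffer cells, 766 to 910 and 762 to 872 for stellate cells, and 2219 to 2325 and 2239 to 2459 for endothelial cells. Biliary markers did not overlap, with 334 to 337 in WT and 370 to 495 in LKO over 5 genes. Their part in the GPS2 result was not tested.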

How the data were processed

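ChIP-seq tags of GPS2 and PPARα, from livers fixed with disuccinimidyl glutarate and then formaldehyde, and of H3K27ac, from livers fixed with formaldehyde only, were used. The authors aligned reads to NCBI37/mm9 with Bowtie (Bowtie2 in the submitters' processing notes) and called peaks with HOMER, and deposited raw tag counts per peak with the nearest start site, and 1 peak list per library. Versions, and the rule that merged lists into tables, are not stated in the labels or the study's methods. The list of WT1 overlapped the table at 77.17% of its peaks and the other lists of this comparison at 100%. Columns of another antibody in the tables used, 6 in all, were not used.

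From the deposited counts, edgeR 4.0.16 (R 4.3.3) quasi-likelihood tests were fitted to every peak of a table, with the total tags in the header as library size and no further factor, and p-values were adjusted by the Benjamini-Hochberg method and called below 0.05. TMM scaling, DESeq2 1.42.0, a likelihood ratio test, filters on low counts, a replicate block and leaving out each library were alternatives. Levels of peak groups got no test. Peaks were matched by an overlap of at least 1 bp with bedtools 2.31.1. Motifs were searched within 100 bp of the peak centre in NCBIM37 sequence, available for 56213 peaks. For each gene of a list the peak with the highest mean within 10000 bp of its start site was read. In addition the 5 largest falls and rises with a mean of at least 50 tags and groups that did not overlap, and the 5 strongest kept peaks, were named. The members and lists were chosen with earlier results of these data known. Scripts were tested on simulated data. Counts were of pooled immunoprecipitations, and intervals cover the spread between libraries only. Replicates of each group differed by more than counting noise. Some genes of the lists are not reported here by name.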

Additional observations from a re-analysis of the deposited data

How the results depend on the processing

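The numbers of single GPS2 peaks that passed a threshold depended on the scaling, on the treatment of the spread and on single libraries. The medians of peaks on NCOR and PPARα peaks stayed below that of all peaks in every alternative run. These classes make up 76.8% and 76.6% of all peaks, however. Within the peaks of the *Gps2* WT library their medians relative to the whole were only -0.02 and -0.01. Scaled to total tags, 19 peaks were lower, 0 higher, 19 lost and 3380 kept. TMM scaling gave 258, 999, 164 and 28556. Scaling to the tags in listed peaks gave 190, 1263, 113 and 30788, and DESeq2 gave 66, 394, 53 and 23995. DESeq2 with total tags gave 9847 lower, 5 higher and 9847 lost, and the likelihood ratio test 5684, 26 and 5684. The filterByExpr filter gave 1698, 2, 1698 and 575, and a mean of at least 10 tags 4113, 2, 4113 and 388, where fewer peaks were tested. Why calls differed between these tests was not tested. Leaving out 1 library, the ranges were 0 to 33248 lower, 0 to 224 higher, 0 to 32976 lost and 2105 to 3424 kept, and in the first 3 the highest value was that without WT3. With TMM, a choice added after seeing the data, the numbers lower without WT1, WT2, WT3, LKO1, LKO2 and LKO3 in turn were 10, 52, 451, 13, 251 and 33, and the numbers higher 26, 98, 1808, 131, 1584 and 100. The numbers lost were 9, 50, 299, 13, 213 and 33, and those kept 26207, 25608, 26312, 23103, 23439 and 24571.

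For groups of peaks, the median relative to all peaks moved to -0.23 (NCOR) and -0.39 (PPARα) for peaks called in every library, from -0.1 each, and to -0.02 (NCOR), -0.01 (PPARα) and -0.01 (H3K27ac) within the peaks of the *Gps2* WT library, the last added after seeing the data. Leaving out 1 library it lay between -0.06 and 0.24 for promoters and -0.08 and 0.13 for H3K4me3, with the negative values without WT1, and between -0.07 and -0.02 for H3K27ac.

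At GPS2 peaks, H3K27ac was lower at 378 and higher at 1217 regions, 658 and 1956 with DESeq2, and 66 to 506 and 247 to 1375 without 1 library. PPARα was lower at 13 and higher at 24 regions, 285 and 668 with TMM, 90 and 236 with DESeq2, 8 lower with filterByExpr, and 1 to 338 and 1 to 103 without 1 library, highest without WT3. GPS2 in *Pparα* KO was lower at 75 and higher at 0 peaks, 27 and 12 with TMM, 7 and 5 with DESeq2, 148 and 1 with filterByExpr, and lower at 2 to 68 without 1 library.

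With the replicate number as a block, 10495 GPS2 peaks were lower, 46 higher and 10495 lost, and with TMM 454 lower, 1277 higher, 217 lost and 29046 kept. The block gave 192 lower and 704 higher H3K27ac regions, 0 and 0 for PPARα and 0 lower GPS2 peaks in *Pparα* KO. Same-numbered GPS2 libraries correlated at -0.005, 0.087 and 0.089 (total tags), so a shared number was not taken as a pairing, and not every sample correlated best with its own number.

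Over 76 named peaks and up to 21 settings each, 1179 values kept direction and call, 289 gained a call, 103 lost one and 7 changed sign. *Pisd-ps2* gave 0.8 with TMM, 0.86 scaled to listed peaks, 1.1 and 0.88 with TMM without WT3 and without LKO2, and 0.81 with TMM and the replicate block, against -0.21. The peaks of *9130024F11Rik* gave 0.35 and 0.26 with TMM without WT1. The median peak held 5.47 normalised tags, which limits single calls.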

Other observations

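Further gene groups were read the same way, as values without explanation. The 15 genes of hepatocyte transcription factors had medians of -1.46 with total tags and -0.31 with TMM, and the 16 acute phase genes, secreted in inflammation, -1.47 and -0.38. *Fga*, a fibrinogen gene, gave -1.9 and -0.84 (edgeR quasi-likelihood, adjusted p = 0.063 with TMM). Of 20 sex-biased liver genes, 13 had a peak, with medians of -1.31 and -0.28. *Elovl3*, a fatty acid elongase gene, gave -1.31 and -0.17 for GPS2, while H3K27ac rose by 1.14 (adjusted p = 0.0068). In these lists 0 genes passed under either scaling by edgeR, and with total tags 11, 13 and 6 were lower at an unadjusted p below 0.05 and 11, 12 and 4 by DESeq2, where 33.9% and 17.5% of all peaks were. Only the strongest peak of each gene was counted.

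Of the housekeeping groups, ribosomal protein genes stood above the median of all peaks (-1.12 and -0.04) and respiratory chain genes below it. The 19 ribosomal protein genes with a peak, of 20, had medians of -0.59 and 0.40, and the 16 respiratory chain genes -1.24 and -0.11.

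The 6 strongest peaks of the table stood close to WT with total tags and rose with TMM. The intergenic peak nearest to *Lrrc4c* (chr2:98507232-98507384) had 836, 1100 and 885 normalised tags in WT and 782, 1003 and 839 in LKO (-0.1, adjusted p = 0.89, and 0.77 with TMM, adjusted p = 0.011), and it was in none of the 6 NCOR lists. The peaks ranked 2 to 6, near *Rab10os*, *Ly6c2*, *Cdk8*, *Filip1l* and *Pex2*, gave -0.15 to -0.26 with total tags and 0.69 to 0.77 with TMM. All 6 total-tag values were below 0, so these rises are relative to the other peaks only. At *Rab10os* the *Gps2* LKO library held 2.03 normalised tags and the *Gps2* WT library 316. At *Cdk8*, *Filip1l* and *Pex2* the *Gps2* LKO library held 8.11, 0 and 1.35, and the *Gps2* WT library 85.8, 112 and 132. For *Lrrc4c* and *Ly6c2* there was no value in these 2 libraries, so the background of the antibody could not be read there. At *Lrrc4c* WT3 lay between WT1 and WT2. Its share of tags in listed peaks was 3.07%, against 8.23% and 7.82%. Whether the tags at *Lrrc4c* and *Ly6c2* follow GPS2 binding was not tested. From rank 7 the values were lower, with *Ptgds*, a prostaglandin synthase gene, at 161, 186 and 67.5 in WT and 37.9, 53.7 and 29.6 in LKO (-1.77 and -0.68, adjusted p = 0.078 and 0.031).

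Rises with TMM also clustered at *Prkag2*, a regulatory subunit gene of the energy sensor AMPK. Its 7 peaks that rose, of 35, were intronic by annotation and ranged from 1.56 to 2.82 with TMM and from 0.55 to 1.8 with total tags, and 0 of the 35 fell. With TMM 1.78% of all peaks and 3.09% of intronic peaks rose. The 7 had means of 5.4 to 12.0 normalised tags, and 2 had every LKO library above every WT library. The gene was chosen after its values were seen.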
